A study of Mus musculus with 18 samples.

Results

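The cells described here are Olfm4-positive, non-dividing cells of the crypt base in the lineage-traced single-cell libraries of the Setdb1 study. A barcode was counted as a member if it held 500 to 18000 unique molecular identifiers (UMIs, each marking 1 captured RNA molecule), 200 to 4000 genes and under 5% mitochondrially encoded UMIs. It also had to hold at least 3 Olfm4 UMIs that made up at least 0.2% of its UMIs, under 3 UMIs summed over the mitotic genes Ube2c, Cenpf, Top2a, Prc1, Nusap1, Aurka, Cdc20 and Ccnb2, under 20% from genes whose symbols start with Defa, and under 1.5% from the goblet genes Muc2, Zg16, Clca1 and Fcgbp. These limits were met by 1016 of the 26266 barcodes kept in the lineage-traced libraries (3.87%), among 51959 kept in all libraries of both sorts. The members were thus selected on measured values, and their levels of these genes are given below as a description.

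The lineage-traced experiment compared WT mice carrying Lgr5-GFP-CreERT2 and the nTnG reporter with Setdb1-KO mice carrying Lgr5-GFP-CreERT2, nTnG and the Setdb1lox/lox alleles, in 2 libraries each. Mice of both genotypes were 60 to 65 days old, received a single dose of 70 mg/kg tamoxifen and were analysed after 5 days, and GFP-positive cells were sorted from crypt-enriched ileal epithelium. In both genotypes the inducible Cre recombinase was expressed from the Lgr5 locus, whose knock-in allele is silenced at random in part of the crypts. The nTnG reporter switches from tdTomato to GFP for good in cells with active Cre and in all of their progeny, so the sort takes stem cells together with their descendants. A second experiment with the same genotypes but without nTnG sorted GFP-positive cells, called the Lgr5+ sort, and is used for comparison. The methods give at least 2 biological replicates for single-cell RNA-seq without naming the mice of each lineage-traced library. The p-values measure the spread between these libraries. In the gene tests of members this spread was pooled over genes, so a gene's own spread between libraries weighs little. Setdb1 deposits trimethylation on lysine 9 of histone H3, and the comparison asks how its loss bears on stem cells and their differentiation.

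Intestinal stem cells sit at the crypt base between Paneth cells and divide continuously to renew the epithelium. They respond to Wnt signals, of which Lgr5, Ascl2 and Axin2 are targets, and to Notch signals. Olfm4 is a secreted glycoprotein found widely in stem cells and their early daughters. Absorptive enterocytes take up fat and other nutrients, goblet cells secrete mucus, and Paneth cells secrete defensins and lysozyme.

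The members held stem cell transcripts that the rule did not use. Lgr5 was at 60.8 and 70.1 CPM (UMIs of a gene scaled to a fixed total of UMIs) in the members of WT library 1 and 2 and at 88.5 and 82.8 CPM in those of Setdb1-KO library 1 and 2. In barcodes with at least 2% of UMIs from Fabp1, Apoa1, Apoa4 and Rbp2 and under 3 Olfm4 UMIs, called enterocyte-gene barcodes here, Lgr5 was at 0, 0, 0 and 2.47 CPM in the same order. Slc12a2, a sodium-potassium-chloride cotransporter of crypt cells, was at 668, 681, 890 and 571 CPM in the members and at 34.6 to 120 CPM in enterocyte-gene barcodes. Gkn3, a gastrokine found in stem cells, was at 92.3, 130, 56.7 and 112 CPM in the members and at 1.16, 0, 48.1 and 9.88 CPM in enterocyte-gene barcodes, so that it set the 2 kinds of barcodes apart least in Setdb1-KO library 1. Igfbp4, which binds insulin-like growth factors, was at 45.0, 80.1, 74.9 and 65.2 CPM in the members and at most at 2.47 CPM in enterocyte-gene barcodes. Ascl2, a Wnt-dependent stem cell transcription factor, was at 47.7 to 80.3 CPM, and the Wnt feedback gene Axin2 at 164 to 225 CPM. The markers of the label were therefore present in all 4 libraries, and since the cells were chosen by Olfm4, no test was made against other barcodes.

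**Figure D1:**
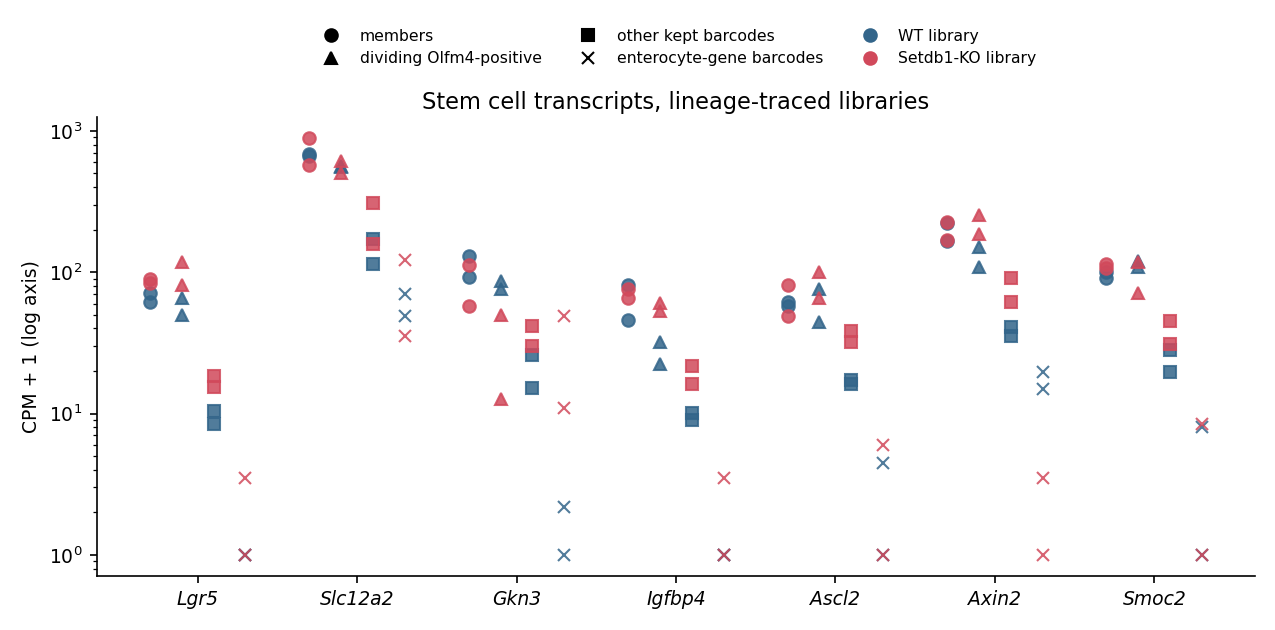
CPM plus 1, on a log axis, of 7 stem cell transcripts in 4 kinds of barcodes (symbol shapes) of the lineage-traced libraries, 1 symbol per library, WT in blue and Setdb1-KO in red. Lgr5 lies between 60.8 and 88.5 CPM in members and reaches at most 2.47 CPM in enterocyte-gene barcodes.

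Single cells held few UMIs of these genes. The members had a median of 1333, 1256, 1331 and 1647 UMIs in WT 1, WT 2, Setdb1-KO 1 and Setdb1-KO 2. A UMI of Lgr5 was seen in 7.4%, 9.5%, 12.7% and 13.8% of them. In enterocyte-gene barcodes, with medians of 1137, 1336, 882 and 3170 UMIs, it was seen in 0 of 631, 0 of 164, 0 of 25 and 1 of 101, and counts of 0 allow shares of cells with a UMI, not of cells that express the gene, of up to 0.475%, 1.83% and 12.0%. After each cell was thinned to 1000 UMIs, which left 230, 45, 162 and 393 members, Lgr5 was seen in 4.8%, 8.9%, 6.8% and 9.7%. The order of the libraries thus changed with depth, and the WT and Setdb1-KO shares overlapped. A list of 32 stem cell and crypt base genes, without Olfm4, gave a median of 4 UMIs per thinned member in each of the 4 libraries, and 95.7%, 95.6%, 96.9% and 96.9% of members had at least 1. In thinned enterocyte-gene barcodes the median was 1, 1, 0 and 0 UMIs.

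Many members lay close to the Olfm4 limit. The median was 4, 4, 5 and 5 Olfm4 UMIs per member, and 166 of 297, 39 of 63, 112 of 229 and 156 of 427 members held 3 to 4. Another 97, 17, 150 and 70 barcodes held 2 Olfm4 UMIs and met all other limits. Of the mitotic genes used by the rule, which capped them, no UMI was seen in 69.0%, 76.2%, 65.1% and 76.1% of members. At least 1 UMI of the 27 mitosis genes that the rule did not use was seen in 52.2%, 48.9%, 46.3% and 44.3% of thinned members, so non-dividing here means few mitotic UMIs and not their absence. The rule used no gene of the DNA replication list, and its 31 genes summed to 1625, 1291, 1493 and 1418 CPM in members, against 308 to 418 CPM in enterocyte-gene barcodes. In kept barcodes outside both kinds and the dividing cells described below they summed to 778, 731, 1487 and 1455 CPM. The members thus lay above these barcodes in WT and close to them in Setdb1-KO. At least 1 UMI of that list was seen in 65.2%, 57.8%, 70.4% and 64.4% of thinned members. Mki67, a proliferation gene the rule did not use, was at 38.3, 30.0, 27.2 and 31.4 CPM in members and at 115, 129, 205 and 285 CPM in barcodes that met every limit but the mitotic one, called dividing Olfm4-positive cells here. The DNA replication genes summed to 2180, 2329, 2331 and 1590 CPM in those dividing cells, above the members in each library. Mki67 was lower in members than in the dividing cells in all 4 libraries.

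Free RNA differed in composition between the genotypes. Barcodes of 10 to 100 UMIs, which hold droplets without a cell, gave 36.5% and 39.5% of their UMIs to Defa genes, the Paneth cell defensins, in WT against 16.0% and 24.3% in Setdb1-KO. WT library 2 stood out with 420685 such barcodes, which held 7331151 of its 27171512 UMIs. The other lineage-traced libraries had 11998 to 39546 such barcodes. The median member held 9.05% and 10.8% Defa UMIs in WT and 1.38% and 3.10% in Setdb1-KO. If all Defa UMIs of members were free RNA, it would make up 22.7% and 25.9% of member UMIs in WT and 12.3% and 12.6% in Setdb1-KO, which is an upper estimate and does not rank the true amounts. The genotypes did not overlap in this estimate, and it is given below beside the genes called lower and some of those called higher. Olfm4 itself made up 0.0199% to 0.0474% of the free RNA. No barcode was shared between the members of the 4 libraries.

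The share of kept barcodes that were members was 3.91% and 1.70% in WT and 4.81% and 4.18% in Setdb1-KO. The mean was 2.81% ± 1.56 (SD, n = 2) in WT and 4.49% ± 0.450 (SD, n = 2) in Setdb1-KO, a difference of 1.69 percentage points (two-sided exact permutation p = 0.333, the smallest that 2 against 2 libraries allow). Both Setdb1-KO libraries lay above both WT libraries, by little for WT library 1. With Olfm4 at or above 0.5% of UMIs the shares were 0.567% and 0.271% in WT and 1.05% and 0.548% in Setdb1-KO, and the genotypes overlapped (exact permutation p = 0.667). Without WT library 2, which held 63 members, the difference was 0.581 percentage points. Of all Olfm4-positive cells, dividing and not, 24.0% (95% exact binomial interval 19.9% to 28.6%) and 25% (16.2% to 35.6%) were dividing in the WT libraries, against 15.5% (11.4% to 20.4%) and 13.2% (10.3% to 16.5%) in Setdb1-KO. The median UMI count of dividing cells was 2018, 1832, 3640 and 2223. The dividing share was lower in both Setdb1-KO libraries, but both its parts come from the rule. As a share of kept barcodes dividing cells made up 1.24% and 0.568% in WT and 0.883% and 0.636% in Setdb1-KO. The genotypes overlapped in this share (exact permutation p = 1). These intervals cover counting error only.

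**Figure D2:**
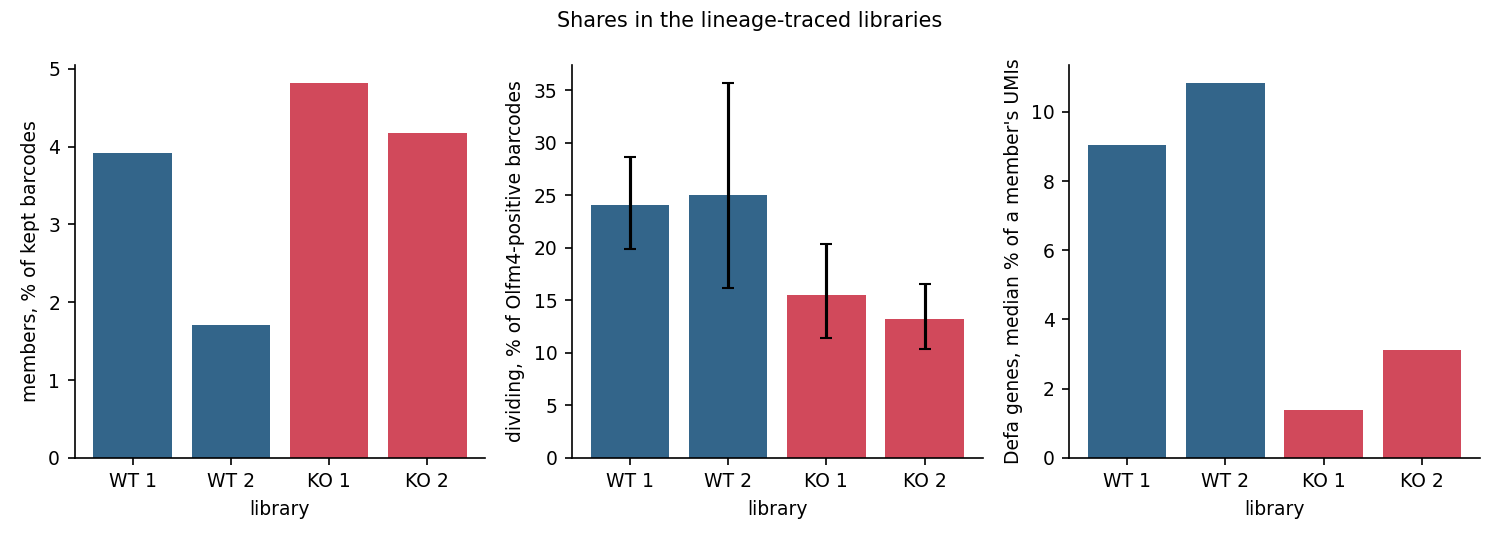
Bars give, for each lineage-traced library (WT in blue, Setdb1-KO in red), members as a percent of kept barcodes, dividing cells as a percent of Olfm4-positive barcodes with 95% exact binomial intervals, and the median percent of Defa UMIs per member. Dividing cells made up 24.0% and 25% in WT against 15.5% and 13.2% in Setdb1-KO, and Defa genes 9.05% and 10.8% against 1.38% and 3.10%.

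Setdb1 itself was too sparse to be tested in the members, with 3, 0, 5 and 6 UMIs in WT 1, WT 2, Setdb1-KO 1 and Setdb1-KO 2. Over all kept barcodes it was at 6.2, 4.3, 10.5 and 7.9 CPM, so it was not lower in the lineage-traced libraries labelled Setdb1-KO, whereas in the Lgr5+ sort it was at 11.3 and 9.94 CPM in WT and 5.26 and 6.26 CPM in Setdb1-KO. The floxed alleles remove exon 3, and the reads were taken at the 3′ end of transcripts, so this level is no check of the deletion. The study checked the deletion by PCR on sorted GFP-positive cells of mice with and without nTnG. The gene lies on chromosome 3 from 95323525 to 95357202 on the minus strand of GRCm38. GFP was seen with 2, 0, 3 and 2 UMIs in members and could not be used to check the sort.

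Between genotypes, 13 genes were called higher in Setdb1-KO members and 52 lower, of 4262 tested on UMIs summed per library (edgeR quasi-likelihood test, Benjamini-Hochberg adjusted p under 0.05). These are 0.305% and 1.22% of all genes tested, the backgrounds against which the gene groups below are read. Of the 52 genes called lower, 22 were in the absorptive enterocyte, Paneth or goblet lists, of which 25, 9 and 7 genes were tested. Of the 24 stem cell genes tested 1 was called lower, and most genes of all kinds were not called. The median log2 fold change of all genes tested was 0.02. Of the 4262 genes, 310 had an unadjusted edgeR p under 0.05, the background for such counts in the lists below. Genes the rule used were left out of these counts. Leaving out WT library 1, which held 297 of the 360 WT members, left 1 gene higher and 19 lower, and DESeq2 called 1 higher, Phgr1, and 33 lower. Genes called higher made up 20% of calls by edgeR and 2.94% by DESeq2.

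**Figure D3:**
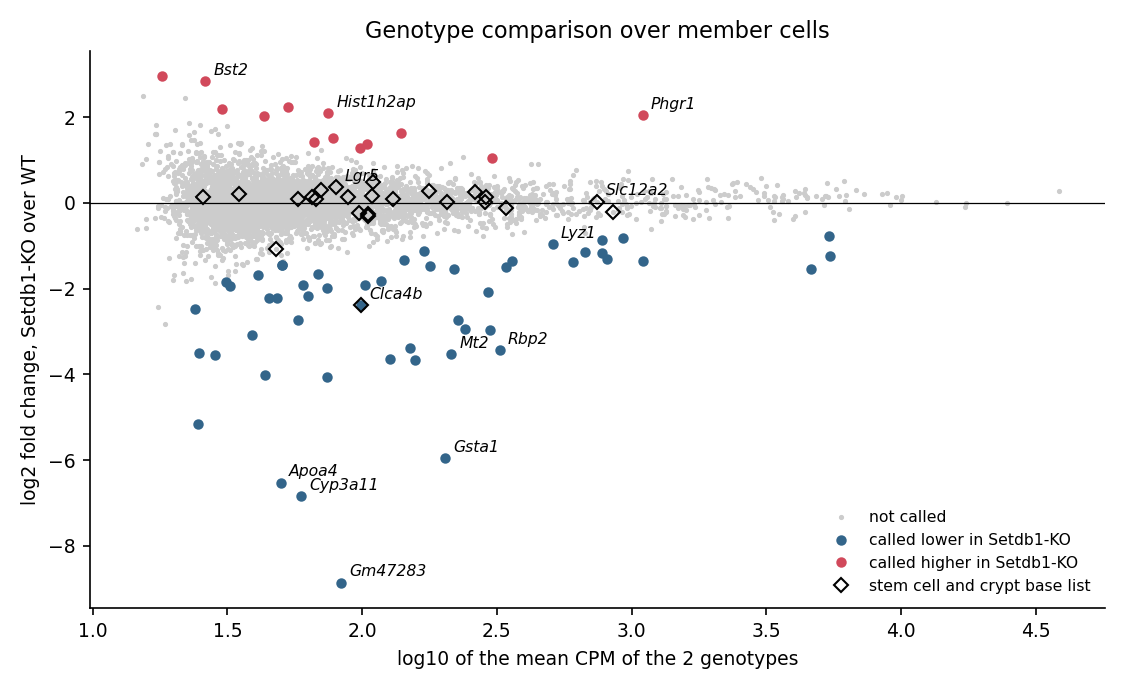
Log2 fold change of Setdb1-KO over WT against the log10 mean CPM in members, 1 point per gene tested, with the 13 genes called higher in red, the 52 called lower in blue and the stem cell and crypt base list as open diamonds. Of the stem cell list only Clca4b was called, at a log2 fold change of -2.39.

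Of the stem cell and crypt base list, 24 of 32 genes were tested, 0 were called higher and 1 lower, with a median log2 fold change of 0.09. Lgr5 was at 66.8 and 76.1 CPM in WT and 89.5 and 88.1 CPM in Setdb1-KO on the scale of the test, where library totals are corrected for composition by TMM. Its log2 fold change was 0.36 ± 0.37 (SE, edgeR adjusted p = 0.988). The WT and Setdb1-KO libraries did not overlap for Lgr5, but the difference was within its error. Ascl2 had 61.9 and 65.2 CPM in WT and 48.2 and 85.4 CPM in Setdb1-KO (log2 fold change 0.14 ± 0.39). Slc12a2 had 735 and 739 CPM in WT and 899 and 607 CPM in Setdb1-KO (0.03 ± 0.25). Gkn3 had 101 and 141 CPM in WT and 57.4 and 119 CPM in Setdb1-KO (-0.30 ± 0.35). For Ascl2, Slc12a2 and Gkn3 the genotypes overlapped. Igfbp4 (0.30 ± 0.40), Axin2 (0.01 ± 0.31), the matricellular gene Smoc2 (0.16 ± 0.35) and the crypt transcription factor Sox9 (-0.13 ± 0.29) were also not called. The 23 stem cell genes that were not called ranged from -1.07 for Lrig1, a growth factor receptor regulator, to 0.48 for Cdk6, a cell cycle kinase, with SE from 0.25 to 0.51. In simulated counts at this depth 17.1% of 2-fold increases and 8.11% of decreases to 0.5 of the level were recovered.

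Clca4b was the exception in the stem cell list. This gene of the calcium-activated chloride channel regulator family was at 188 and 141 CPM in WT members and 32.1 and 33.4 CPM in Setdb1-KO members (log2 fold change -2.39 ± 0.36, edgeR adjusted p = 6.86e-09). The free RNA estimate supplied only 18.1 and 11.7 CPM of the WT level. Clca4b was also high in enterocyte-gene barcodes of the WT libraries, at 609 and 656 CPM, against 96.1 and 49.4 CPM in those of Setdb1-KO. Its family member Clca3b did not pass the test, at 987 and 826 CPM in WT and 915 and 673 CPM in Setdb1-KO (-0.21 ± 0.25).

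Of the absorptive enterocyte list, 14 of 25 genes tested were called lower in Setdb1-KO members and 0 higher, with a median log2 fold change of -1.30. Gsta1, a glutathione transferase of the villus, was at 344 and 457 CPM in WT and 9.18 and 4.00 CPM in Setdb1-KO (-5.95 ± 0.45, adjusted p = 1.06e-36). In thinned members a Gsta1 UMI was seen in 23.9% and 17.8% of WT cells and in 1.2% and 0.5% of Setdb1-KO cells. Thinned enterocyte-gene barcodes held one in 81.4% and 68.1% in WT and 77.8% (of 9) and 54.3% in Setdb1-KO. By level Gsta1 was lower there too, at 8579 and 6042 CPM in WT and 1730 and 1386 CPM in Setdb1-KO. Over all kept barcodes it was at 747 and 621 CPM in WT and 50.7 and 46.1 CPM in Setdb1-KO. The genotypes were thus far apart for this gene, in members and beyond them. Cyp3a11, which oxidises drugs and steroids, was at 148 and 87.0 CPM in WT and at 0 and 1.33 CPM in Setdb1-KO, where 1 UMI was counted against 68. The ratio over pooled UMIs was 155 (95% counting interval 26.8 to 6198). Apoa4, a lipoprotein component made during fat absorption, was at 111 and 87.0 CPM in WT and at 0 and 1.33 CPM in Setdb1-KO, a ratio of 121 (20.7 to 4850). Rbp2, which carries retinol in enterocytes, was at 530 and 663 CPM in WT and 29.8 and 72.1 CPM in Setdb1-KO (-3.43 ± 0.32, adjusted p = 5.63e-23). Fabp1, which binds fatty acids, was at 478 and 478 CPM in WT and 68.8 and 148 CPM in Setdb1-KO (-2.09 ± 0.30, adjusted p = 9.57e-10). Each of these genes was lower in both Setdb1-KO libraries than in either WT library. The same held for all 52 genes called lower, so it does not set these genes apart.

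These enterocyte transcripts were also in the free RNA. The 35 genes of the list summed to 9790 and 9981 CPM in WT members and 5415 and 6852 CPM in Setdb1-KO members, while enterocyte-gene barcodes held 65167 to 103629 CPM and the barcodes of 10 to 100 UMIs held 9809 to 17116 CPM. At the estimated free RNA shares, the free RNA supplied 219 and 357 CPM of Rbp2 and 269 and 351 CPM of Fabp1 in WT, but 54.1 and 97.8 CPM of Gsta1. When the free RNA profile was subtracted from each library, an alternative chosen after the data were seen, 6 of the 20 enterocyte genes still tested were called lower and 0 higher. Gsta1, Cyp3a11, Rbp2 and Fabp1 were among the genes called. The estimate exceeded the measured level in both Setdb1-KO libraries for Gsta1 (27.9 against 9.18 CPM and 9.82 against 4.00 CPM) and Cyp3a11 (8.29 against 0 CPM and 1.87 against 1.33 CPM), and in Setdb1-KO library 1 for Rbp2 (81.0 against 29.8 CPM) and Fabp1. Folds after subtraction rest on levels set to 0 in those libraries and are not given. Apoa4 and Apoa1 no longer passed the filter on low counts.

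Other genes called lower included Spink1, S100g, Fabp6, Gstm3, Mt2 and Cox7a1. Spink1, a trypsin inhibitor, was at 342 and 239 CPM in WT and 25.2 and 22.7 CPM in Setdb1-KO (-3.67 ± 0.36, adjusted p = 2.83e-21). S100g, a calcium-binding protein of enterocytes, was at 297 and 250 CPM in WT and 22.9 and 29.4 CPM in Setdb1-KO (-3.38 ± 0.36, adjusted p = 2.14e-18). Fabp6, the bile acid carrier of the ileum, was at 480 and 370 CPM in WT and 68.8 and 46.7 CPM in Setdb1-KO (-2.95 ± 0.32, adjusted p = 3.79e-17). The glutathione transferase Gstm3 was at 327 and 467 CPM in WT and 55.1 and 58.7 CPM in Setdb1-KO (-2.73 ± 0.33, adjusted p = 2.33e-14). Mt2, a metallothionein that binds zinc, was at 403 and 380 CPM in WT and 36.7 and 32.0 CPM in Setdb1-KO (-3.53 ± 0.35, adjusted p = 1.54e-21). Over all kept barcodes Mt2 was at 315 and 237 CPM in WT and 68.8 and 79.5 CPM in Setdb1-KO. The free RNA estimate showed 57.3% of the CPM difference for Fabp6, 39.0% for Spink1, 36.5% for S100g, 26.0% for Gstm3 and 8.36% for Mt2. After its subtraction Fabp6 did not pass the filter on low counts, while Spink1, S100g, Gstm3 and Mt2 were called lower. For Spink1 the estimate was 29.0 and 21.0 CPM in Setdb1-KO, about its whole measured level there, so that fold after subtraction had next to nothing left in Setdb1-KO to rest on. Cox7a1, a subunit of cytochrome oxidase, was the only 1 of 80 nuclear oxidative phosphorylation genes tested that was called, at 86.6 and 109 CPM in WT and 18.4 and 28.0 CPM in Setdb1-KO (-1.93 ± 0.42, adjusted p = 0.000411). DESeq2 did not call it (adjusted p = 0.164).

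Of the Paneth list, 7 of 9 genes tested were called lower and 1 higher, with a median log2 fold change of -1.34. Lyz1, the Paneth cell lysozyme, was at 834 and 489 CPM in WT and 450 and 263 CPM in Setdb1-KO (-0.97 ± 0.26, adjusted p = 0.0178). Mptx2, a pentraxin family member, was at 517 and 544 CPM in WT and 75.7 and 60.1 CPM in Setdb1-KO (-2.97 ± 0.32, adjusted p = 4.57e-18). Itln1, a lectin, was at 1680 and 1468 CPM in WT and 697 and 545 CPM in Setdb1-KO (-1.36 ± 0.24, adjusted p = 2.91e-06). The free RNA estimate in WT was close to or above the measured level for part of these values, with 607 and 694 CPM of Lyz1, 535 and 503 CPM of Mptx2 and 1147 and 1249 CPM of Itln1. After its subtraction Lyz1 (0.02, adjusted p = 0.998) and Itln1 (-0.34, adjusted p = 0.998) were not called, Mptx2 did not pass the filter, and the median of the 7 Paneth genes still tested was 0.02, with 2 called higher and 0 lower. Mptx1, a relative of Mptx2, went the other way, at 19.8 and 10.9 CPM in WT and 133 and 48.1 CPM in Setdb1-KO (2.23 ± 0.49, adjusted p = 0.000533). The free RNA estimate for Mptx1 was 21.2 and 17.3 CPM in WT, above its measured level there, and 18.5 and 29.0 CPM in Setdb1-KO, and it could not be tested after subtraction. Of the goblet genes not used by the rule, 1 of 7 tested was called, Spink4, at 8050 and 5631 CPM in WT and 4375 and 3621 CPM in Setdb1-KO (-0.78 ± 0.20, adjusted p = 0.00787), and of 3 enteroendocrine genes 1 was called, Chga, at 69.3 and 152 CPM in WT and 9.18 and 42.7 CPM in Setdb1-KO (-1.65 ± 0.41, adjusted p = 0.00478). The other enteroendocrine genes were not called in the main test. Chgb was at 148 and 228 CPM in WT and 25.2 and 163 CPM in Setdb1-KO, and Sct was at 29.7 and 21.7 CPM against 32.1 and 89.4 CPM. All 3 enteroendocrine genes had an unadjusted edgeR p under 0.05, and Chgb was called without doublets and with the replicate number as a block. The Setdb1-KO libraries differed widely from each other in these genes. After free RNA was subtracted neither Spink4 nor Chga was called, at -0.36 for Spink4 and -1.94 for Chga, whose fold was as large as before. Of the 7 goblet genes tested then, 1 was called higher and 0 lower. DESeq2 called 5 of the Paneth genes lower and 0 higher, 0 of the goblet genes, and not Chga (adjusted p = 0.436). The study names 15 differentiation genes as prematurely activated in Setdb1-KO cells of its stem cell cluster Stem-I, from the Lgr5+ sort. Of these 6 were tested in members, and Rbp2, Apoc3, Spink4, Lyz1 and Itln1 were called lower (3 by DESeq2), the opposite direction. After free RNA was subtracted 1 of the 5 still tested was called lower, and the median moved from -1.16 to -0.34. The same rule in the Lgr5+ sort tested 7 and called 0, with a median of 0.05. The study took the list from cells of the Lgr5+ sort, so it is not independent of the test in that sort. The lineage-traced libraries come from the same study.

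**Figure D4:**
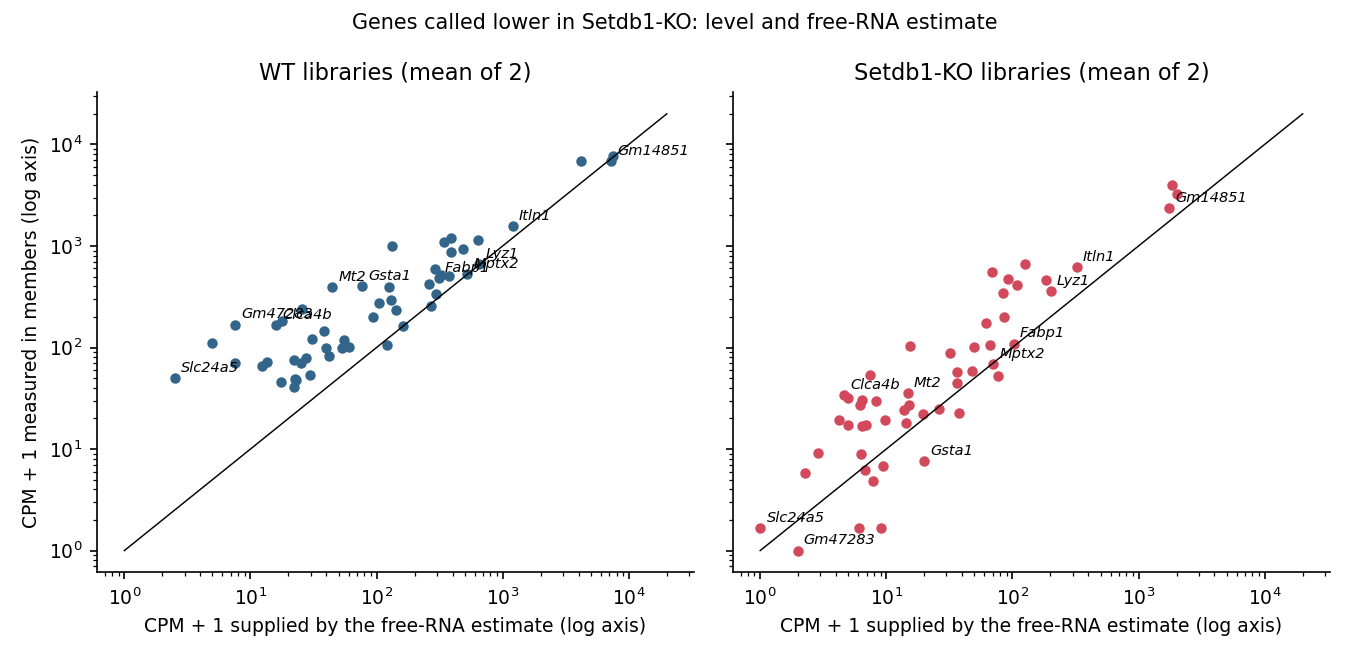
For the 52 genes called lower in Setdb1-KO, CPM plus 1 measured in members against CPM plus 1 supplied by the free RNA estimate, both on log axes and as means of the 2 libraries of a genotype (WT left, Setdb1-KO right), with the line of equality. Mptx2 and Lyz1 lie near the line in WT, while Mt2, Clca4b, Slc24a5 and Gm47283 lie well above it.

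Over all 52 genes called lower, the median share of the WT to Setdb1-KO difference in CPM that the free RNA estimate also showed was 46.3%, and it exceeded 50% for 23 genes. After subtraction, 39 of the 52 were still tested and 17 were still called lower. Of the 22 that were tested and no longer called lower, 17 kept the direction and 6 had a log2 fold change at least as large as before, Ces2c, Agpat2, Chga, Id3, Tmem147 and Mt1. Of the 13 called higher, 12 were still tested and 4 were still called, Phgr1, Hist1h2ap, Gstp1 and Bst2. The other 8 kept their direction with log2 fold changes of 1.17 (Scand1) to 3.74 (Fnta), so a call lost after subtraction does not by itself mean that the difference shrank. The part of free RNA in the remaining differences was not tested beyond this subtraction.

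A pair of transcripts was nearly absent from Setdb1-KO members of the lineage-traced libraries. The free RNA estimate in WT was 4.81 and 8.20 CPM for Gm47283 and 1.13 and 1.88 CPM for Slc24a5. Gm47283, annotated as a protein-coding gene on chromosome Y from 90784738 to 90816464 (GRCm38), was at 94.0 and 239 CPM in WT members and had no UMI in Setdb1-KO members, so that it was at least 45.5-fold lower over pooled UMIs, with 3 UMIs as the floor over both Setdb1-KO libraries. Over all kept barcodes it was at 33.5 and 42.5 CPM in WT and 0.8 and 0.5 CPM in Setdb1-KO. Slc24a5, a potassium-dependent sodium-calcium exchanger, was at 32.2 and 65.2 CPM in WT and at 0 and 1.33 CPM in Setdb1-KO, where 1 UMI was counted against 19 (ratio 43.2, 95% counting interval 6.87 to 1796). It was singled out after its values were seen, and over all kept barcodes it was at 15.1 and 33.4 CPM in WT and 0.7 and 0.2 CPM in Setdb1-KO. For both genes the genotypes did not overlap over all kept barcodes either, which include the members. Neither was absent from Setdb1-KO cells chosen by the same rule in the Lgr5+ sort. There, without TMM scaling, Gm47283 was at 208 and 78.1 CPM in WT and 51.7 and 28.8 CPM in Setdb1-KO. Slc24a5 was at 9.71 and 7.43 CPM in WT and 4.21 and 2.87 CPM in Setdb1-KO of that sort. Uty, another gene on chromosome Y, was at 24.7 and 43.5 CPM in WT members and 18.4 and 34.7 CPM in Setdb1-KO members (-0.03 ± 0.54). By the methods all mice were male.

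Phgr1 was the most abundant of the genes called higher. This gene, expressed along the gut epithelium, was at 398 and 478 CPM in WT members and 1624 and 1895 CPM in Setdb1-KO members (2.04 ± 0.26, adjusted p = 5.24e-13). In thinned members a Phgr1 UMI was seen in 31.3% and 31.1% of WT cells and in 74.7% and 80.2% of Setdb1-KO cells. The free RNA supplied 133 to 171 CPM in the 4 libraries, and Phgr1 was also higher in enterocyte-gene barcodes, at 868 and 1039 CPM in WT and 2980 and 3947 CPM in Setdb1-KO. Bst2, or tetherin, an interferon-induced protein that retains virus particles at the cell surface, was at 4.95 and 10.9 CPM in WT and 36.7 and 52.1 CPM in Setdb1-KO (adjusted p = 0.00445). With 3 UMIs in WT members, the ratio over pooled UMIs was 8.06 (95% counting interval 2.62 to 40.3). Gstp1, a glutathione transferase, was at 49.5 and 109 CPM in WT and 218 and 183 CPM in Setdb1-KO (1.63 ± 0.37, adjusted p = 0.000930). Bex1 was at 39.6 and 43.5 CPM in WT and 108 and 121 CPM in Setdb1-KO (adjusted p = 0.0155). Acot1, a thioesterase of fatty acid metabolism, was at 14.8 and 21.7 CPM in WT and 73.4 and 62.7 CPM in Setdb1-KO (2.03 ± 0.52, adjusted p = 0.00787). Eif3j2, which encodes a copy of a translation initiation factor subunit, was at 9.90 and 10.9 CPM in WT and 71.1 and 29.4 CPM in Setdb1-KO (2.19 ± 0.63, adjusted p = 0.0322). It has a close relative in Eif3j1, and its counts depend on how reads were divided between them. Over all kept barcodes Phgr1, Bst2, Gstp1, Bex1, Acot1 and Eif3j2 were each higher in both Setdb1-KO libraries than in either WT library too. Gstp1, for example, was at 33.9 and 108 CPM in WT and 247 and 192 CPM in Setdb1-KO there. The kept barcodes include the members, and these genes were picked from the same libraries, so this is no separate support.

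The clustered histone genes Hist1h2ap and Hist1h2ae were also higher. Hist1h2ap was at 22.3 and 43.5 CPM in WT and 138 and 96.1 CPM in Setdb1-KO (2.08 ± 0.44, adjusted p = 0.000265), and the free RNA estimate was 7.36 and 44.7 CPM in WT and 24.0 and 11.7 CPM in Setdb1-KO, as high as the measured level in WT library 2. Hist1h2ae was at 39.6 and 97.8 CPM in WT and 133 and 145 CPM in Setdb1-KO (1.38 ± 0.39, adjusted p = 0.0261). Histone genes of a cluster are near-identical in sequence, so the division of reads between them is uncertain. The remaining genes called higher by the naming rule were Scand1 (1.05 ± 0.31), Dalrd3 (1.29 ± 0.37) and a transcript without a gene name (1.43 ± 0.42), with adjusted p of 0.0352, 0.0349 and 0.0389. Fnta, a farnesyltransferase subunit named after its values were seen, was at 4.95 and 0 CPM in WT and 36.7 and 30.7 CPM in Setdb1-KO, where 39 UMIs were counted against 2 (ratio 8.57, 95% counting interval 2.22 to 73.3, adjusted p = 0.0405).

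Among genes of innate sensing 1 was called. Of the 33 interferon response and nucleic acid sensing genes in the files, 7 were tested, and only Bst2 was called, with 3 of the 7 at an unadjusted edgeR p under 0.05, 0 called by DESeq2, 6 above 0 and a median log2 fold change of 0.50. Of the 16 necroptosis and death receptor genes only Cyld, a deubiquitinase, was abundant enough to test (34.6 and 43.5 CPM in WT, 29.8 and 60.1 CPM in Setdb1-KO, 0.36 ± 0.46). None of the 5 MHC class II genes tested was called by edgeR or DESeq2 and 1 had an unadjusted p under 0.05, with a median of -0.12, and the class II chaperone Cd74 was at 1255 and 1598 CPM in WT and 856 and 1492 CPM in Setdb1-KO (-0.26 ± 0.23, adjusted p = 0.965), so that the genotypes overlapped. H2-Eb1, a class II chain, was at 473 and 424 CPM in WT and 252 and 292 CPM in Setdb1-KO (-0.73 ± 0.28, adjusted p = 0.321). Of 8 MHC class I genes tested 0 were called by either tool and 1 had an unadjusted edgeR p under 0.05, with H2-K1 at 233 and 141 CPM in WT and 110 and 120 CPM in Setdb1-KO (-0.81 ± 0.31, adjusted p = 0.321) and the class I light chain B2m at 0.39 ± 0.28.

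No gene of the cell cycle, Notch and chromatin lists was called by edgeR or DESeq2, and at an unadjusted p under 0.05 edgeR held 4 of the mitosis genes and 0 of the DNA replication, Notch and H3K9 genes. Of the DNA replication genes 21 were tested with a median of -0.22, among them the PCNA-associated factor Pclaf (-0.40 ± 0.31) and the nucleotide hydrolase Dut (0.32 ± 0.33). The 8 mitosis genes tested that the rule did not use had a median of -0.61, with Hmgb2 (-0.24 ± 0.29) and Tubb4b (-0.85 ± 0.35, adjusted p = 0.364) the most abundant. Hes1, the main Notch target of the crypt, was at 599 and 533 CPM in WT and 782 and 463 CPM in Setdb1-KO (0.11 ± 0.26), and the receptor Notch2 was not called (0.25 ± 0.35). Of the H3K9 methylation and silencing list 12 genes were tested, with a median of -0.02, and the heterochromatin proteins Cbx3 (0.09 ± 0.24) and Cbx1 (0.43 ± 0.33) were the most abundant. None of 5 p53 targets, 3 regenerative and fetal-like genes, 5 transcription factors named by the study, 6 stress response genes, 2 Zfp9xx zinc finger genes, 1 tuft cell gene or 3 nuclear RNAs tested was called by either tool, and of these a nuclear RNA alone had an unadjusted edgeR p under 0.05. Ribosomal protein genes were above 0 in 72 of 81 tested, with a median of 0.17 against 0.02 for all genes, and 0 were called by edgeR or DESeq2, with 11 at an unadjusted edgeR p under 0.05. With library totals in place of TMM the median of all genes moved to 0.10 and that of ribosomal protein genes to 0.24, with 1 of them called higher. The ribosomal protein genes also made up less of the free RNA in WT (152772 and 152793 CPM) than in Setdb1-KO (226087 and 233117 CPM). With free RNA subtracted their median was 0.20, with 74 of 81 above 0 and 0 called. Markers of T and other immune cells were at or near 0, at 0 to 5.02 CPM summed over the list in members, and the 57 clustered protocadherins summed to at most 6.75 CPM and were not tested.

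The same rule was applied to the Lgr5+ sort, where it found 5630 cells (1133 and 1759 in WT, 557 and 2181 in Setdb1-KO) with medians of 3598 to 7500 UMIs. That sort was not of stem cells alone, as enterocyte-gene barcodes made up 0.779% and 2.02% of the barcodes kept in WT and 5.77% and 2.13% in Setdb1-KO. There 22 genes were called higher and 11 lower in Setdb1-KO, of 11023 tested (0.2% and 0.0998%). Of the 52 genes called lower in lineage-traced members, 50 were tested in the Lgr5+ sort and 0 were called lower there by edgeR. Of these 18 had the same sign, and 6 of those had an unadjusted p under 0.05. In either direction 1293 of all 11023 genes tested there had such a p. Of the 13 genes called higher in lineage-traced members, 12 were tested and 2 were called higher there. These were Phgr1, at 456 and 621 CPM in WT and 1032 and 1335 CPM in Setdb1-KO (1.14 ± 0.17, adjusted p = 0.0307), and Eif3j2, at 2.33 and 1.94 CPM in WT and 12.3 and 12.7 CPM in Setdb1-KO (2.55 ± 0.26, adjusted p = 0.00306). Counts of calls are not on 1 scale between the sorts. Fabp6, at 3.59 ± 0.82 in the Lgr5+ sort, was not called there (edgeR adjusted p = 0.142). Gstp1, at 1.63 ± 0.37 in lineage-traced members, was called (edgeR adjusted p = 0.000930). The estimated free RNA share was lower in the Lgr5+ sort, at 3.64% to 6.08%.

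Whether the genotype effect differed between the sorts was tested by an interaction term over the 8 libraries. It was called for 49 of 10087 genes (0.486%), more negative in lineage-traced cells for 40 and more positive for 9. Among the genes called lower in lineage-traced members 29 of 52 had a called difference, and among those called higher 4 of 13, counts that are favoured by the choice of these genes on the same lineage-traced libraries. For Mt2 the difference in log2 fold change, lineage-traced minus Lgr5+, was -3.51 ± 0.31 (adjusted p = 3.65e-07), and Mt2 was at 23.3 and 26.3 CPM in WT and 23.9 and 28.5 CPM in Setdb1-KO of the Lgr5+ sort. Clca4b gave -2.24 ± 0.37 (adjusted p = 0.00192). Bst2 gave 3.45 ± 0.65 in the positive direction (adjusted p = 0.00633). Phgr1 and Eif3j2 had no called difference (1.04 ± 0.31, adjusted p = 0.232, and -0.26 ± 0.78, adjusted p = 0.965). Cd74 fell by 1.55 ± 0.28 in the Lgr5+ sort without passing the threshold (adjusted p = 0.0698), and the difference from its effect in lineage-traced members did not pass the threshold either (1.46 ± 0.40, adjusted p = 0.142). Without WT library 1 of the lineage-traced sort only 4 differences in the negative and 0 in the positive direction were called. Sort, reporter allele and depth differ together between the experiments and cannot be told apart.

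**Figure D5:**
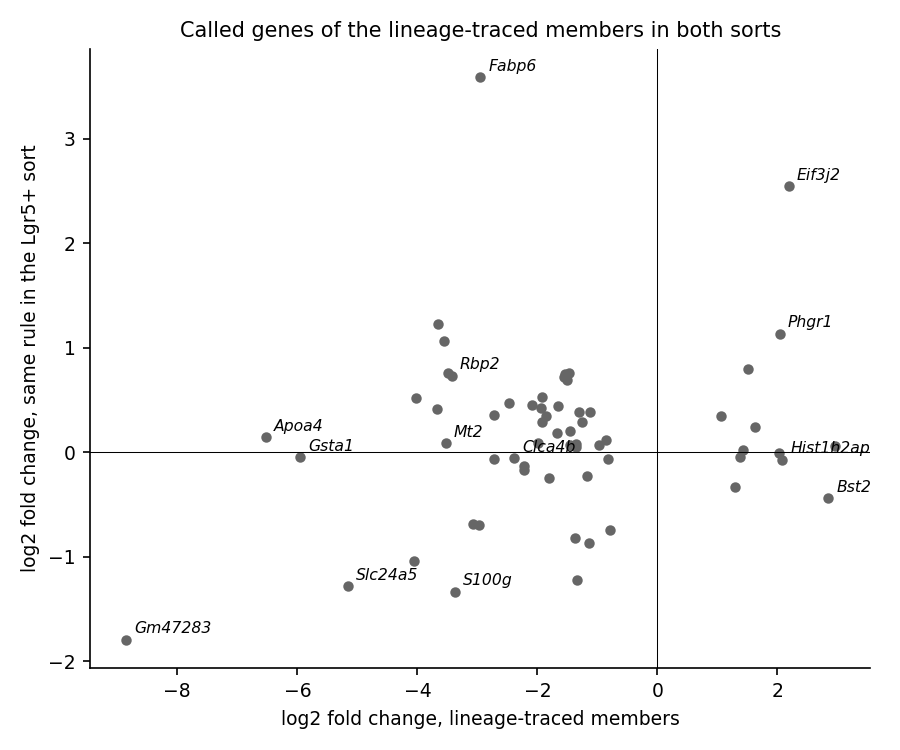
Log2 fold change of Setdb1-KO over WT in cells of the Lgr5+ sort chosen by the same rule (vertical axis) against that in lineage-traced members (horizontal axis), for the genes called in lineage-traced members and tested in both. Phgr1 and Eif3j2 are high on both axes, while Gsta1, Apoa4 and Mt2 lie far below 0 on the horizontal axis and near 0 on the vertical axis.

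Dividing Olfm4-positive cells of the lineage-traced libraries (94, 21, 42 and 65 cells) allowed a comparison within the same libraries. The genotype effect differed between non-dividing and dividing cells for 2 of 2885 genes (0.0693%), Itln1 and Lyz1. Itln1 was at 1169 and 953 CPM in WT and 1875 and 964 CPM in Setdb1-KO dividing cells, and the effect was more negative in non-dividing cells by -1.69 ± 0.19 (edgeR adjusted p = 4.14e-07). Lyz1 was at 492 and 527 CPM in WT and 1563 and 466 CPM in Setdb1-KO dividing cells (-1.98 ± 0.26, adjusted p = 4.45e-06). Setdb1-KO library 1 was the high library among dividing cells for both genes, which are Paneth transcripts common in the free RNA. Phgr1 was higher in dividing cells as well, at 386 and 426 CPM in WT and 1440 and 1657 CPM in Setdb1-KO (1.96 ± 0.22), with no called difference between the cell states (0.12 ± 0.23, adjusted p = 0.983).

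Variation between single members was measured as the coefficient of variation (CV, SD as a percent of the mean) of each gene over thinned members of a library. Over 1352 genes with a mean of at least 0.05 UMIs in each of the 4 libraries, the median CV was 262% and 252% in WT and 252% and 252% in Setdb1-KO. The means were 257% ± 6.61 and 252% ± 0.270 (SD, n = 2), and the difference of -4.72 percentage points was smaller than the spread of the WT libraries (two-sided exact permutation p = 0.667). Without thinning, over 2214 genes, the difference was -24.2 percentage points, with 281% and 264% in WT and 251% and 246% in Setdb1-KO. For 413 genes with a mean of at least 0.2 UMIs in thinned members it was 1.55 percentage points, with both Setdb1-KO libraries above both WT libraries (exact permutation p = 0.333, the smallest that 2 against 2 libraries allow). The direction was thus the same with and without thinning and turned with the genes kept. The exact permutation test of 2 against 2 libraries cannot go below 0.333.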

How the data were processed

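Single-cell RNA-seq libraries (3′-end droplet counts) were analysed from 4 lineage-traced and 4 Lgr5+ samples. The authors deposited raw UMI counts per gene and barcode, made with CellRanger 6.1.1 on mm10 per the labels (the matrix headers name Cell Ranger 4), unfiltered and not normalized, with 16881518 to 43046925 UMIs per lineage-traced library. The clusters made by the authors with Seurat 5.0.3 were not used here, and cells were chosen by the rule stated in the text. The members and gene lists were chosen with earlier results of these data known.

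Member UMIs were summed per library and tested for genotype alone by the quasi-likelihood method of edgeR 4.0.16 in R 4.3.3, after filterByExpr and TMM scaling, with Benjamini-Hochberg adjusted p under 0.05 as the threshold. DESeq2 1.42.0 was an alternative. Standard errors are the absolute log2 fold change divided by the square root of the F statistic. CPM of tested genes include the TMM factor, and CPM of other barcodes do not. Interaction terms compared sorts and cell states. Shares and CVs were compared by exact permutation. On simulated counts of 3946 genes for the genotype comparison, 81.0% of 4-fold increases and 17.1% of 2-fold increases were recovered, as were 48.6% of decreases to 0.25 and 8.11% of decreases to 0.5 of the level, with 3 false calls. The summed depth of members was 99891 to 797402 UMIs per library.

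Genes were named by a rule: the stem cell list, up to 12 called genes per direction with an absolute log2 fold change of at least 1, non-overlapping genotypes and the smallest adjusted p, and up to 3 called members of each list or its 2 most abundant. Fabp1, Lyz1, Slc24a5 and Fnta fall outside it and were chosen after their values were seen. Mki67, Chgb, Sct, Ces2c, Agpat2, Id3, Tmem147 and Mt1 also fall outside it. Free RNA was taken from barcodes of 10 to 100 UMIs. Doublets were not removed in the main analysis and were removed with scanpy 1.11.5 (Scrublet) as an alternative. Gene positions are from GENCODE M21. Other steps ran in Python 3.11.15 (scipy 1.17.1).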

Additional observations from a re-analysis of the deposited data

Results flagged for a closer look

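For 17 of the genes named above, the genotype effect differed between lineage-traced members and the same rule in the Lgr5+ sort by the interaction test (edgeR, adjusted p under 0.05). The difference is given as lineage-traced minus Lgr5+ log2 fold change. It was positive for Hist1h2ap (2.27), Gstp1 (1.53) and Bst2 (3.45). Among enterocyte and detoxification genes it was -5.83 for Gsta1, -3.99 for Rbp2, -4.85 for Apoa1, -6.95 for Apoa4, -6.46 for Fabp6, -2.92 for Gstm3 and -4.58 for Apoc3. It was -3.51 for Mt2, -4.02 for Spink1, -2.24 for Clca4b and -2.09 for Cox7a1. The Paneth genes Mptx2 and Gm14851 gave -2.16 and -2.11. Gm47283, with no UMI in Setdb1-KO lineage-traced members, gave a fitted value of -9.90 that depends on the prior count of the fit. The free RNA estimate also differed between genotypes in the lineage-traced libraries (22.7% and 25.9% against 12.3% and 12.6%) and stayed at 3.64% to 6.08% in the Lgr5+ sort, and its part in these differences was not tested.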

How the results depend on the processing

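The direction of the 65 called genes was the same under each alternative named in advance in which they were tested. Counts are given as higher and lower in Setdb1-KO, against 13 and 52. They were 3 and 8 of 758 genes with Olfm4 at or above 0.5%, 3 and 35 when thinned to 1000 UMIs, and 1 and 33 with DESeq2. Leaving out a library gave 1 to 23 higher and 19 to 55 lower, the low ends without WT library 1 and the high ends without Setdb1-KO library 1. Subtracting free RNA, chosen after the data were seen, gave 7 and 17, shared 21 calls with the main result and turned 5 of its genes around, among them Gm14851 at 1.74. Same-numbered libraries correlated at 0.07 over genes and share only a number, and with the replicate number as a block the counts were 15 and 49.

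In the Lgr5+ sort, against 22 and 11, the counts were 169 and 223 without a filter on low counts, DESeq2 called 22 lower, and leaving out a library gave 25 to 57 higher and 25 to 47 lower. For the difference between sorts, against 9 and 40, they were 25 and 66 without the filter, 5 higher with RLE scaling, and 0 to 14 and 4 to 46 without a library, lowest without lineage-traced WT library 1. For the difference between dividing and non-dividing cells, against 0 and 2, DESeq2 called 1 lower and leaving out a library gave 0 to 1 and 1 to 3. At an unadjusted p under 0.05 that test held 153 genes.

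The difference in member share ranged from 0.581 to 2.79 percentage points without a library. The CV difference was -24.2 without thinning and 20.8 percentage points with Olfm4 at or above 0.5%, where 5 WT library 2 cells were left, and ranged from -9.64 to 1.25 without a library. Requiring under 1% Defa UMIs and under 2% enterocyte UMIs left 0 WT members, so no test or CV could be made there. The causes were not tested. With 2 libraries per genotype and a median of 1256 to 1647 UMIs per cell, depth limits calls to large changes.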
